A study of Homo sapiens with 4 samples.

Results

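Rab GTPases are the subject of this report: 56 human RAB genes, each named RAB with a number and at most 1 letter and each holding at least 20 reads over 4 RNA-seq libraries. The name was matched by 63 of 58174 gene rows, and 7 of these fell under the count minimum. RAB3C and RAB41 had 0 reads, RAB1C had 3, RAB42 and RAB44 had 4 each, RAB37 had 14 and RAB7B had 17. Just inside the minimum were RAB9B with 29 reads, RAB40A with 30, RAB6C with 32 and RAB33A with 43. All 56 are protein-coding genes in the GENCODE annotation.

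The study sequenced RNA of SW1990 and PANC-1, 2 established human pancreatic cancer cell lines, with and without radiation, in work on the vesicles that irradiated cells release. The 4 groups were unirradiated SW1990 cells, SW1990 cells given 10 Gy of X-rays, unirradiated PANC-1 cells and PANC-1 cells given 10 Gy. Each group was 1 library, so no difference between 2 groups has a replicate check. The time between radiation and RNA collection is not given in the sources used here.

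Rab proteins are small GTPases that mark membrane compartments of the cell. Exchange factors load them with GTP, in which state they recruit effectors that move, tether and fuse vesicles, and GTPase-activating proteins switch them off. A lipid tail added by the geranylgeranyl transferase anchors them in the membrane, and escort proteins deliver them there. Epithelial cells of ducts use further Rabs, such as RAB25 and RAB17, for traffic between the apical and the basolateral surface, and RAB27A, RAB27B, RAB11, RAB31 and RAB35 are known for parts in vesicle secretion.

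Read totals were 17939210 and 18388969 in unirradiated and irradiated SW1990 cells and 23451153 and 20154644 in the matching PANC-1 cells. The 56 RAB genes held 39648, 41025, 54756 and 49413 of these reads, in the same order, which was between 0.222% and 0.247% of the reads on named genes. At this depth the floor of 3 counts lay between 0.14 and 0.158 CPM, counts scaled to a library size that was set by TMM (trimmed mean of M values). FPKM, the level scaled to transcript length and mapped fragments, summed to 793.8, 811.9, 817.4 and 845.9 over the 56 genes. An FPKM of at least 1 was reached by 45, 48, 45 and 44 of them.

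The libraries were first compared with the tissue on their labels. Of the ductal keratins, KRT8, KRT18 and KRT19 were above 100 FPKM in all 4 libraries, with KRT8 between 786 and 1888 FPKM, and KRT7 was between 5.02 and 6.35 FPKM. EPCAM, the epithelial adhesion molecule, was at 217 and 218 FPKM in SW1990 cells but at 2.28 and 2.81 in PANC-1 cells. VIM, which codes for the mesenchymal filament protein vimentin, had 17 and 0 reads in SW1990 cells and 82406 and 75166 in PANC-1 cells. The leukocyte gene PTPRC had at most 2 reads in any library. The 3 endothelial markers summed to 22, 52, 2 and 4 reads, most of them from VWF (14, 50, 2 and 4), with PECAM1 at 0, 2, 0 and 0. All 4 endocrine markers were at 0 reads, and of the acinar markers PRSS1 held at most 12 reads. Summed over 5 fibroblast markers the level was 2.96, 3.88, 9.3 and 11.7 FPKM in unirradiated SW1990, irradiated SW1990, unirradiated PANC-1 and irradiated PANC-1 cells (the order used below), with COL1A2 and DCN at 0 reads. The most abundant of them was PDGFRB in unirradiated SW1990 cells (1.56 FPKM) and COL1A1 in the others (2.85, 8.44 and 11 FPKM). Summed over 4 leukocyte markers it was 1.77, 2.25, 19.2 and 15 FPKM, with CD68 at 18.8 FPKM in unirradiated PANC-1 cells and CD3E at 0. A part of such markers in the differences of the lines was not tested.

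**Figure D1:**
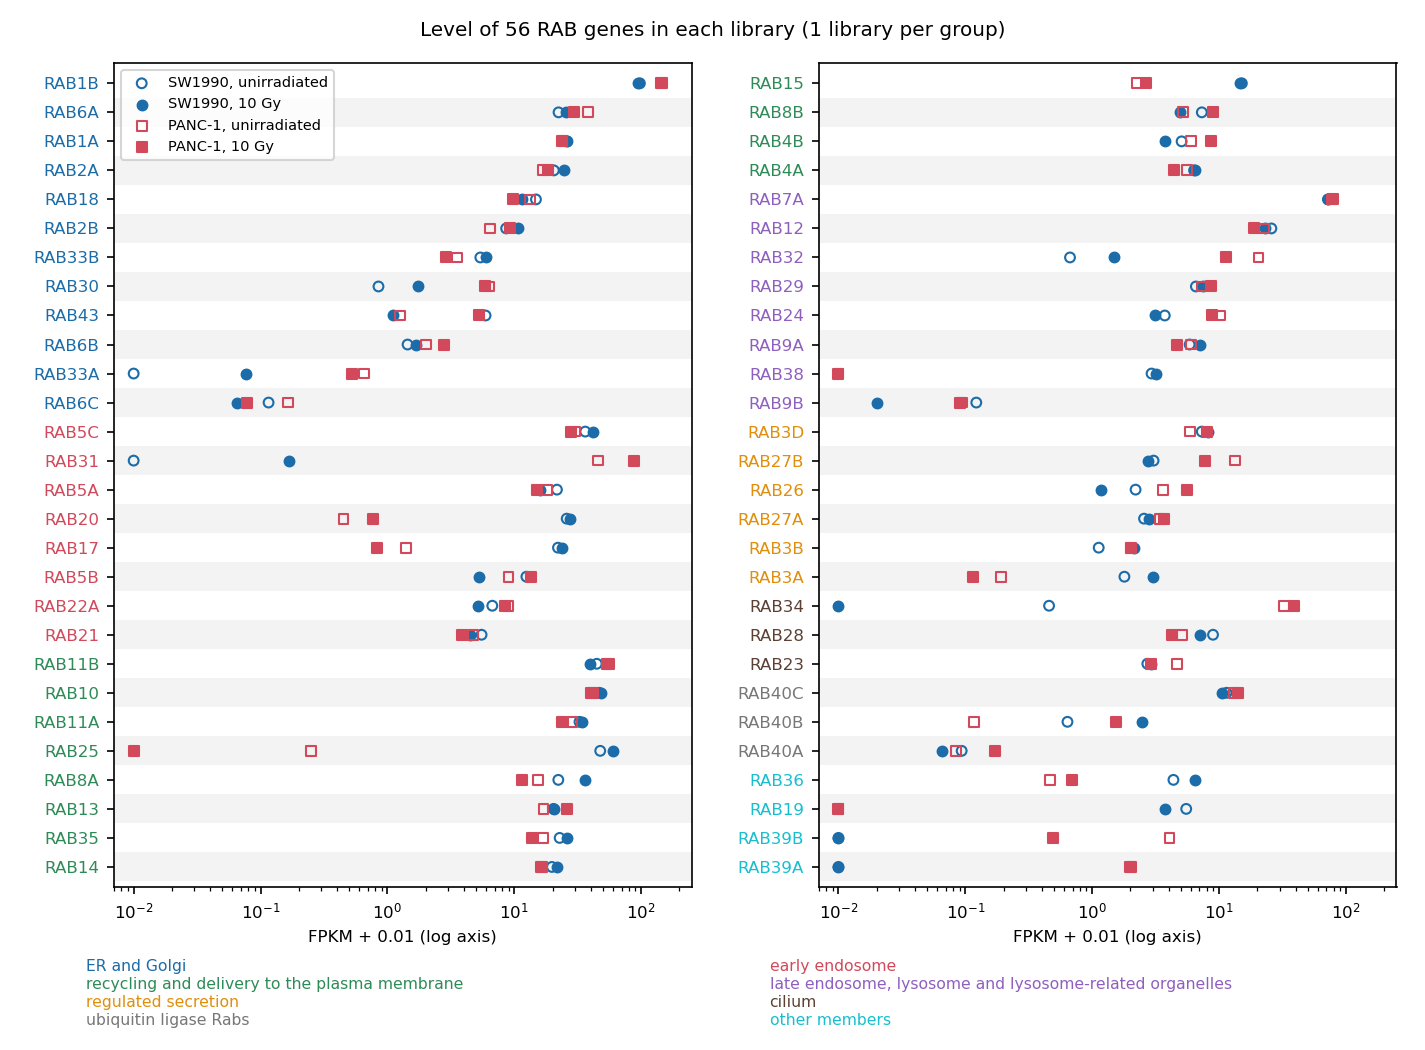
FPKM plus 0.01 on a log axis for each of the 56 RAB genes, grouped by the compartment of the protein (label colour), with 1 point per library (circles for SW1990, squares for PANC-1, open for unirradiated and filled for 10 Gy). Most genes have their 4 points close together, while RAB25, RAB20, RAB31 and RAB34 separate the lines by more than an order of magnitude.

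RAB1B was the most abundant RAB transcript in every library. In order of mean FPKM the 10 most abundant were RAB1B, RAB7A, RAB11B, RAB10, RAB5C, RAB31, RAB11A, RAB6A, RAB25 and RAB1A, and these 10 made up 53.6% and 54.2% of the RAB FPKM in SW1990 cells and 59.1% and 60.5% in PANC-1 cells. RAB1B, which directs traffic from the endoplasmic reticulum to the Golgi, led with 97.6, 93.5, 142 and 145 FPKM. It stood above RAB7A in every library. RAB7A, the Rab of late endosomes and lysosomes, was at 72, 71.8, 78 and 78.5 FPKM. RAB10, which serves delivery to the plasma membrane, was at 46.6, 48.4, 41.9 and 39.9 FPKM. These are bulk libraries, in which fewer expressing cells and less RNA per cell cannot be told apart.

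The most abundant Rabs differed in how far they moved after radiation. In PANC-1 cells RAB31 was at a log2 fold change of 1.59, and in SW1990 cells RAB11A was at 0.63 and RAB25 at 0.40, all in counts. RAB1B was at log2 fold changes of -0.02 in SW1990 and -0.05 in PANC-1 cells, and RAB10 at 0.11 and -0.14 on the same scale. RAB7A was at -0.16 and -0.34 in counts, from 2910 and 2559 reads and from 4791 and 3470, but its FPKM was nearly level within each line. RAB6A, which moves vesicles back from the Golgi, had 1422, 1771, 3258 and 2247 reads, log2 fold changes of 0.34 and -0.41. Of the 10, only RAB31 in PANC-1 cells was called in a line.

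By compartment, the 12 Rabs of recycling and delivery to the plasma membrane took the largest part in SW1990 cells, with 36.6% and 39% of the RAB FPKM. In PANC-1 cells they took 25.6% and 25%, and the 12 Rabs of the endoplasmic reticulum and Golgi took 31.1% and 29.9%. In SW1990 cells the Golgi group stood at 25.6% and 24.9%. Early endosome Rabs took 16.4%, 15.2%, 14.5% and 18.7% of the RAB FPKM, and Rabs of late endosomes and lysosomes took 14.8%, 14.4%, 17.7% and 15.5%. The 6 Rabs of regulated secretion, RAB27A and RAB27B among them, made up no more than 3.48% in any library.

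The lines differed in a set of RAB genes that were present in one and nearly missing in the other. A single edgeR model (quasi-likelihood test) of all 4 libraries had treatment as a covariate, so that each line had 2 libraries. Of 53 RAB genes kept in the fit, 24 differed at an adjusted p under 0.05, which is 45.3%. Over all 18180 genes the share was 44.7%, so the RAB genes differed between the lines about as often as other genes. Of the 24 genes, 9 were higher in SW1990 and 15 were higher in PANC-1. The fit has 1 residual degree of freedom, and its libraries may differ by culture or preparation as well as by line. The test without replicates, unirradiated SW1990 against unirradiated PANC-1 cells, called 20 of 51 RAB genes (39.2%) at a q-value under 0.001 and over 2-fold in a conditional binomial test on the reads, against 36% of all genes tested. With read totals for scaling, which moved the fold changes of these 2 libraries by 0.228 on the log2 scale, 17 of 51 were called (33.3%) against 36.6% of all genes, and with FPKM 17 against 36.2%. At 1.5-fold the RAB genes were called in 27 cases (52.9%), against 50.7% of all genes.

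RAB25 and RAB17 were among the Rabs higher in SW1990 cells. RAB25, an epithelial relative of RAB11 in apical recycling, had 969 and 1261 reads in SW1990 cells against 6 and 0 in PANC-1 cells. In the fit of 4 libraries the adjusted p was 0.000761. RAB17, a Rab of polarised epithelial sorting, had 801 and 856 reads in SW1990 cells and 63 and 45 in PANC-1 cells, a fitted log2 difference of 4.05 (adjusted p = 0.000439). RAB20, an endosome and phagosome Rab, had 863 and 925 reads against 20 and 29, a log2 difference of 5.29 (adjusted p = 0.000329). In FPKM, RAB25 and RAB20 reached 47.5 and 25.9 in unirradiated SW1990 cells, so that RAB25 stood near RAB10 and RAB11B there.

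RAB15, of the recycling endosome, had 966, 920, 218 and 209 reads (log2 difference 2.25, adjusted p = 0.000922). RAB36 had 248, 420, 43 and 48 reads (log2 difference 2.93, adjusted p = 0.00186). RAB3A, the synaptic vesicle Rab, had 55, 90, 8 and 4 reads (log2 difference 3.64, adjusted p = 0.00748). These 3 genes kept a low level in PANC-1 cells. RAB38, which serves melanosomes and other lysosome-related organelles, had 95 and 103 reads in SW1990 cells and 0 and 0 in PANC-1 cells, and was at least 35.3-fold higher in the unirradiated library when 3 reads are set for 0. RAB19 had 114 and 80 reads against 0 and 0, at least 42.4-fold higher by the same bound. RAB11A completed the 9 genes with a log2 difference of only 0.63 (adjusted p = 0.0359), from 1692, 2573, 1426 and 1469 reads.

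Among the 15 genes higher in PANC-1 cells, RAB31 was furthest apart. RAB31 is a relative of RAB5 and RAB22A that moves receptors between the Golgi and endosomes. It had 0 and 2 reads in SW1990 cells and 1755 and 4843 in PANC-1 cells, at least 524-fold higher in the unirradiated PANC-1 library (adjusted p = 0.000242). At 45.8 and 87.8 FPKM it was among the most abundant Rabs of PANC-1 cells. RAB34, a Rab of cilium formation and lysosome position, had 13, 0, 1211 and 1247 reads (adjusted p = 0.00169). RAB32, which acts at mitochondria and lysosome-related organelles, had 18, 41, 716 and 343 reads (log2 difference -4.01, adjusted p = 0.00449).

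RAB39B, known from neurons, had 0 and 0 reads in SW1990 cells and 412 and 42 in PANC-1 cells (adjusted p = 0.00177), and its relative RAB39A had 0, 0, 108 and 91 (adjusted p = 0.00299). In both cases SW1990 cells gave no read at all. RAB27B, a Rab of granule and exosome secretion, had 313 and 346 reads in SW1990 cells and 2017 and 1297 in PANC-1 cells, a log2 difference of -2.19 (adjusted p = 0.0017). RAB27A, which shares that role, had 163, 148, 278 and 232 reads, a log2 difference of -0.61 that did not pass (adjusted p = 0.116). In the unirradiated libraries its sum with same-strand overlaps gave -0.85 in place of -0.61 for RAB27A alone. RAB30, a Golgi Rab, had 65, 131, 541 and 476 reads (log2 difference -2.34, adjusted p = 0.00505). RAB24, linked to autophagy, had 107, 97, 410 and 309 reads (log2 difference -1.70, adjusted p = 0.00566). RAB24 shares 926 of its 2065 exon bases with MXD3 on the same strand, and in the unirradiated libraries their sum gave -1.04 in place of -1.78 for RAB24 alone.

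Smaller differences towards PANC-1 cells passed the same test for abundant members. RAB1B had 4296, 4169, 8218 and 7243 reads, a log2 difference of -0.76 (adjusted p = 0.00927). RAB11B, the second RAB11 gene, had 1571, 1420, 2490 and 2209 reads (log2 difference -0.55, adjusted p = 0.031), and RAB7A had 2910, 2559, 4791 and 3470 reads (log2 difference -0.48, adjusted p = 0.0456). When read totals were used for scaling in place of TMM, RAB7A was at -0.32 and RAB11B at -0.39. With that scaling 21 RAB genes passed (39.6%), 10 higher in SW1990 and 11 lower, beside 43.8% of all genes. Of all genes, 4530 were higher and 3440 lower with that scaling (3965 and 4159 with TMM). RAB7A and RAB11B were among the RAB genes that no longer passed with it, as those higher in PANC-1 cells went from 15 to 11. RAB7A and RAB11B also lost the call when any 1 of the 4 libraries was left out, with log2 differences between -0.60 and -0.29 for RAB7A and between -0.61 and -0.49 for RAB11B. RAB11A lost it without irradiated SW1990 cells or either PANC-1 library, with log2 differences of 0.32, 0.59 and 0.79. The last of the 15 were RAB6B, RAB8B, RAB22A and RAB33A, which are named here because they completed the count. RAB8B had 317, 299, 606 and 551 reads, but its FPKM was 7.30, 4.91, 5.16 and 8.87. In the unirradiated libraries its log2 difference was -0.78 in counts and 0.50 in FPKM, so that the sign depended on the measure. With DESeq2 in place of edgeR, 21 RAB genes passed (39.6%), 9 higher in SW1990 and 12 lower, beside 33.7% of all genes. RAB6B and RAB8B (adjusted p = 0.104 and 0.0871 in the Wald test of DESeq2) and RAB33A (no adjusted p given) did not pass there.

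Levels in the lines were set beside promoter sequence for members of both directions. The set of promoters used here held an entry for 45 of the 56 genes. The stretches below come from RefSeq (GRCh38.p14) and run 5′ to 3′ on the gene's strand up to its first exon in GENCODE. They are RAB25 at chr1:156060910-156061159 (250 bases, plus strand), high in SW1990 cells, and RAB31 at chr18:9708051-9708164 (114 bases, plus strand) and RAB32 at chr6:146543583-146543692 (110 bases, plus strand), high in PANC-1 cells. Capitals mark the E-box CACCTG and the GC box GGGCGG, each searched on both strands.
RAB25: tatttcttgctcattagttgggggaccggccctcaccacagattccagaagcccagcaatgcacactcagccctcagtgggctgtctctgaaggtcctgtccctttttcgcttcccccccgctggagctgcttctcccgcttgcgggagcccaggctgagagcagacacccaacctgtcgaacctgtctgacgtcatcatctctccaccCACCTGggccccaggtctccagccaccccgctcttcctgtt
RAB31: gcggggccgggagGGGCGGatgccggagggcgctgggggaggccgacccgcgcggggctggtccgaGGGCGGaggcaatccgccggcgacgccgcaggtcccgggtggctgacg
RAB32: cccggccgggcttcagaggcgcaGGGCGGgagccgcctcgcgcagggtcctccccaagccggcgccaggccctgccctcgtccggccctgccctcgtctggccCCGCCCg
The RAB25 stretch held 1 CACCTG and no GC box at a GC content of 60.4%. The RAB31 stretch held 2 GC boxes at 82.5% GC, and the RAB32 stretch held 2 at 81.8% GC. Within 250 bases before the start, CACCTG was found in 17.5% of all 35116 promoters of the table and in 16.9% of the 65 promoters of RAB genes. GGGCGG was found in 42.6% of all promoters and in 75.4% of those of RAB genes, and CCAAT in 32% and 27.7%. The printed stretches differ in length and do not stand for all members of a direction. Among others higher in SW1990 cells, RAB17 held CACCTG and no GGGCGG, and RAB19 held both. RAB11A and RAB3A held GGGCGG and no CACCTG. A match is a description of the letters only.

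After 10 Gy, few RAB genes changed by much in SW1990 cells. Of 48 RAB genes that reached 1 FPKM in either SW1990 library, 4 were called (8.33%) against 4.2% of all 15731 genes tested. The call was by the same binomial test, which compares 2 libraries and not the conditions. RAB30 was higher in the irradiated library, and RAB43, RAB26 and RAB5B were lower. At 1.5-fold, 10 were called (20.8%) against 9.41% of all genes, 5 in each direction. The median absolute log2 fold change was 0.24, both over these RAB genes and over all genes tested. With read totals for scaling RAB30 was at 0.97 and just under the limit. That left 0 higher and 3 lower (6.25%), beside 652 of all genes (4.14%).

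RAB30 had 65 reads in unirradiated and 131 in irradiated SW1990 cells, a log2 fold change of 1.03 with a counting interval from 0.59 to 1.48. In PANC-1 cells it had 541 and 476 reads, and its log2 fold change was -0.05 there. RAB26, a Rab of secretory granules, went from 68 to 27 reads in SW1990 (log2 fold change -1.31, interval -2.01 to -0.65) and had 130 and 144 in PANC-1 cells. In FPKM the SW1990 value of RAB26 was -0.91, which is under 2-fold. RAB32 and RAB3B, a Rab of regulated exocytosis, were higher after radiation in SW1990 cells without a call at 2-fold. RAB3B had 315 and 609 reads (log2 fold change 0.97), and RAB32 rested on 18 and 41 reads (1.21, interval 0.38 to 2.10).

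RAB8A and RAB11A, which carry cargo to the plasma membrane and to the cilium, were both higher in counts in irradiated SW1990 cells. RAB8A had 1137 and 1927 reads, a log2 fold change of 0.78 in counts and 0.69 in FPKM. It overlaps HSH2D on the same strand, which had 193 and 275 reads, and the summed locus gave 0.75. RAB11A had 1692 and 2573 reads, a log2 fold change of 0.63 in counts, but its FPKM was 32.6 and 34.4, a log2 fold change of 0.08. RAB29, a Golgi and lysosome Rab that is a partner of LRRK2, had 406 and 210 reads (-0.93) while its FPKM went from 6.55 to 7.40 (0.18). Counts and FPKM were over 0.5 apart on the log2 scale in 4 of 48 RAB genes (8.33%) against 6.85% of all genes. For RAB11A and RAB29 the change of the counts was therefore not seen in the level per length.

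In PANC-1 cells, 5 of 46 RAB genes were called (10.9%) against 4.7% of all 15159 genes tested. RAB31, RAB5B, RAB43 and RAB40B were higher in the irradiated library, and RAB39B was lower. At 1.5-fold, 9 were called (19.6%) against 11.7% of all genes, 4 higher and 5 lower. Most RAB genes, 31 of 46, had a negative log2 fold change, with a median of -0.10 beside -0.02 over all genes tested. The share below 0 was 67.4% of RAB genes and 51.7% of all genes. With read totals for scaling, PANC-1 fold changes moved by 0.0896, and 24 of 46 RAB genes (52.2%) were below 0 beside 42.2% of all genes, with a RAB median of -0.01. In FPKM it was 25 of 46 (54.3%) beside 43.4%, with a RAB median of -0.03.

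In PANC-1 cells RAB31 went from 1755 to 4843 reads, 3.02-fold more after scaling (log2 fold change 1.59, interval 1.52 to 1.67). Its FPKM went from 45.8 to 87.8, a log2 fold change of 0.94, so that the change was smaller per length and under 2-fold. RAB31 spans chr18:9708165-9862551 and overlaps on its strand the pseudogene ZNF415P1 and a locus without a gene name, which together with RAB31 gave 1.48. RAB40B, whose protein serves a ubiquitin ligase, had 8 and 49 reads in PANC-1 cells (log2 fold change 2.75, interval 1.65 to 4.03) and 28 and 53 in SW1990 cells (0.94, interval 0.25 to 1.66). In FPKM its log2 fold changes were 3.85 and 1.98, both larger than those of the counts. It was the only RAB gene among those tested in both lines that was over 1.5-fold apart in the same direction in both. RAB39B had 412 and 42 reads in PANC-1 cells, a log2 fold change of -3.16 (interval -3.66 to -2.70), and its FPKM went from 4.06 to 0.479.

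Further Rabs differed in irradiated PANC-1 cells by less than 2-fold, among them the largest falls without a call. RAB8A had 1112 and 589 reads, a log2 fold change of -0.79 in counts and -0.42 in FPKM. RAB32 had 716 and 343 reads (-0.93 in counts, -0.85 in FPKM). RAB23, a Rab of cilium and Hedgehog signalling, had 653 and 347 reads (-0.78 in counts, -0.70 in FPKM), and RAB33B, a Golgi and autophagy Rab, had 467 and 271 reads (-0.66 in counts, -0.30 in FPKM). RAB23 shares 2842 exon bases with BAG2 on the opposite strand, and RAB33B shares 694 with AC097376.2 on its opposite strand. Whether the counting used strand is not given in the sources used here. RAB13, a tight junction Rab, had 587 and 758 reads (0.50 in counts, 0.62 in FPKM).

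The Rabs best known for vesicle secretion did not share a direction. RAB27B had 2017 and 1297 reads in PANC-1 cells (log2 fold change -0.51 in counts, -0.80 in FPKM) and 313 and 346 in SW1990 cells (0.17 in counts, -0.14 in FPKM). RAB27A was at -0.12 in SW1990 and -0.13 in PANC-1 cells in counts, and at 0.14 and 0.11 in FPKM. It overlaps PIGBOS1 and a locus without a gene name on its strand. Their sum with RAB27A gave -0.18 in SW1990 and -0.26 (interval -0.47 to -0.06) in PANC-1 cells. RAB35, which acts at the plasma membrane and in recycling, had 1356, 1538, 1251 and 903 reads, log2 fold changes of 0.20 and -0.34. RAB3D, of secretory granules, had 636, 786, 724 and 795 reads, log2 fold changes of 0.33 and 0.27, and its sum with TMEM205, which overlaps it on the same strand, gave 0.23 and 0.03. None of RAB27A, RAB27B, RAB35, RAB3D, RAB11A and RAB11B was called at 2-fold in either line, and RAB31, called in PANC-1 cells, had no more than 2 reads in SW1990 cells.

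Counts and FPKM were over 0.5 apart in 4 of 46 RAB genes in PANC-1 cells (8.7%) against 6.64% of all genes. These were RAB31, RAB43, RAB40B and RAB8B, and RAB8B is named here because it completed the count. With FPKM in place of counts for the fold change, 3 of the 46 RAB genes met the call in PANC-1 cells (6.52%) beside 4.39% of all genes.

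The fit of all 4 libraries with line as a covariate tested the mean change after radiation over the lines, which a change in 1 line can also move. None of the 53 RAB genes passed an adjusted p under 0.05 in edgeR's quasi-likelihood test, and none of all 18180 genes did (0%). At an unadjusted p under 0.05 there were 3 RAB genes and 877 genes in all, which is 4.82%. DESeq2 called 0 RAB genes and 39 genes in all. The smallest adjusted p was 0.942, shared by 11 RAB genes, of which RAB31 had the smallest unadjusted p (0.00132).

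For RAB genes as for all genes, the direction of change was often not shared by the lines. Of 42 RAB genes tested in both, 19 had the same sign (45.2%) beside 54.5% of all 13228 genes tested in both. With read totals it was 17 (40.5%) beside 54%, and in FPKM 18 (42.9%) beside 53.2%. The log2 fold changes of the lines were over 1 apart in 10 of the 42 (23.8%) against 12% of all genes. With read totals it was 7 (16.7%) against 12.2%, without RAB23, RAB3B and RAB30, and with FPKM 8 (19%) against 13.1%. No replicates exist to test these differences. The 10 were RAB43, RAB5B, RAB40B, RAB26, RAB29, RAB3B, RAB30, RAB23, RAB8A and RAB32. Across the 42 genes Pearson's r was -0.467 and Spearman's rho was -0.349, and r was -0.115 without RAB43. Genes of 1 library share its depth and scaling and are not independent replicates.

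RAB8A showed the contrast with the tightest counting interval of the 10. Its log2 fold change was 1.57 higher in SW1990 than in PANC-1 cells (counting interval 1.39 to 1.75), from 1137 and 1927 reads in SW1990 and 1112 and 589 in PANC-1. In FPKM it went from 22.2 to 35.8 in SW1990 and from 15.5 to 11.5 in PANC-1 cells, so both measures gave opposite signs for the lines. RAB32 differed by 2.14 (1.32 to 2.96), RAB23 by 1.12 (0.82 to 1.42), and RAB3B by 1.05.

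RAB43, a Golgi Rab, had the greatest change of all RAB genes tested in SW1990 cells. In SW1990 it had 580 and 96 reads (log2 fold change -2.57, interval -2.90 to -2.26) and 74 and 585 in PANC-1 cells (3.11, interval 2.76 to 3.48). RAB43 lies at chr3:129087569-129122801 on the minus strand. The readthrough gene ISY1-RAB43, at chr3:129087575-129161036 on the same strand, joins the upstream gene ISY1 to RAB43 and shares 3956 of the 4991 exon bases of RAB43. It had 0 and 340 reads in SW1990 cells and 330 and 0 in PANC-1 cells. The readthrough gene was at 0 in the libraries where RAB43 was high, and held reads in those where RAB43 was low.

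Summed over RAB43 and ISY1-RAB43, the locus had 580, 436, 404 and 585 reads. The log2 fold change of the sum was -0.39 (interval -0.57 to -0.21) in SW1990 and 0.66 (interval 0.48 to 0.85) in PANC-1 cells, and neither passed 2-fold. The baseline difference of the lines, 3.13 for RAB43 alone, was 0.68 for the sum. ISY1, a splicing factor gene that the readthrough gene also spans, had 489, 263, 392 and 531 reads. It too was lower in the libraries where ISY1-RAB43 held reads. How the counting divided reads between overlapping genes is not given in the sources used here, and its part in the RAB43 values was not tested beyond this sum.

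RAB5B was the other RAB gene called in opposite directions in the lines. The 3 RAB5 genes code for near relatives that control fusion of early endosomes. RAB5B, at chr12:55973913-55996683 on the plus strand, went from 476 to 203 reads in SW1990, a log2 fold change of -1.21 (interval -1.45 to -0.97) in counts and -1.25 in FPKM. In PANC-1 cells it had 463 and 864 reads, 1.03 (interval 0.87 to 1.20) in counts and 0.59 in FPKM. In the unirradiated libraries its level was 12.4 FPKM in SW1990 and 8.97 in PANC-1 cells.

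RAB5B overlaps no other gene with at least 20 reads. Its neighbour SUOX lies 497 bases away on the same strand and had 273, 323, 200 and 336 reads, and CDK2, 1129 bases away, had 663, 755, 1298 and 1264. Neither was lower in irradiated SW1990 cells, and in PANC-1 cells SUOX was higher after radiation (log2 fold change 0.88) and CDK2 was at 0.09. RAB5A had 1013, 637, 1092 and 864 reads, log2 fold changes of -0.65 and -0.21. RAB5C had 1160, 1367, 1194 and 1015 reads, log2 fold changes of 0.26 and -0.10. The 3 genes together had a log2 fold change of -0.24 in SW1990 and 0.13 in PANC-1 cells in counts, while their summed FPKM went from 70.3 to 62.5 and from 57.3 to 56.6, so that the sign in PANC-1 cells depended on the measure.

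In all, 12 RAB genes overlapped another gene with at least 20 reads on the same strand, and 8 of them shared exon bases with it. On the opposite strand, 16 RAB genes overlapped such a gene. A further look at RAB4B, a recycling Rab with the readthrough gene RAB4B-EGLN2 on its strand, showed 167, 127, 261 and 332 reads for RAB4B and 58, 74, 78 and 3 for the readthrough gene. The PANC-1 log2 fold change of 0.48 for RAB4B was 0.11 for their sum. RAB4B was chosen after its values were seen. RAB5C overlaps AC099811.2, which had 36, 92, 255 and 39 reads, and their sum gave 0.31 in SW1990 and -0.33 in PANC-1 cells. Of the RAB genes called, 3 in SW1990, 3 in PANC-1 and 11 in the baseline comparison overlapped no gene with at least 20 reads on either strand.

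Lists were made of prenylation and escort genes, exchange factors, GTPase-activating proteins, effectors, and Rab-like genes outside the name rule. Of the genes on these lists, 0 of 120 tested were called in SW1990 cells (0%, against 4.2% of all genes tested). In PANC-1 cells it was 1 of 116 (0.862%, against 4.7%). In SW1990 cells, 0 genes were called among 8 of prenylation and escort, 36 exchange factors, 35 GTPase-activating proteins, 33 effectors and 8 Rab-like genes. The gene called in PANC-1 cells was MICALL2, an effector of RAB8 and RAB13 in junction traffic, with 666 and 1252 reads (log2 fold change 1.04) and with 820 and 1031 in SW1990 cells (0.35). Medians of the lists lay between -0.21 and 0.11 in both lines. The furthest of each list without a call included TBC1D2, a GTPase-activating protein of RAB7, at 0.75 in SW1990 cells, and FYCO1, a RAB7 effector of lysosome transport, at -0.75 in PANC-1 cells. RABAC1, a prenylated Rab acceptor, was at 0.59 and 0.41.

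Between the lines, 56 of 122 genes of these lists passed in the fit of 4 libraries (45.9%), about the 44.7% of all genes. In the fit of 4 libraries, the list of 8 prenylation and escort genes had 3 higher and 2 lower in SW1990 cells, and the 37 exchange factors kept had 6 higher and 13 lower. The 36 GTPase-activating proteins had 8 higher and 9 lower, the 33 effectors had 5 and 7, and the 8 Rab-like genes had 3 and 0. RAB11FIP4 and RAB11FIP1, effectors of RAB11, were higher in SW1990 cells. RAB11FIP4 had 1296, 1379, 55 and 43 reads (4.88, adjusted p = 0.000278), and RAB11FIP1 had 2569, 2990, 360 and 320 (3.13, adjusted p = 0.000356).

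Regulators of single Rabs were also far apart between the lines. RIN1, an exchange factor of RAB5 genes, had 87, 122, 1103 and 1217 reads (log2 difference -3.38, adjusted p = 0.000421). DENND5B had 295, 256, 3434 and 3171 reads (-3.48, adjusted p = 0.000294). TBC1D4, a GTPase-activating protein of RAB10 known from glucose transporter traffic, had 4205, 4301, 434 and 647 reads (3.11, adjusted p = 0.0006), while TBC1D8 had 407, 488, 4581 and 4947 (-3.31, adjusted p = 0.00029). RASEF, a larger Rab-like protein, had 1319, 1295, 444 and 224 reads (2.15, adjusted p = 0.0027). In each of these genes the 2 libraries of a line lay on the same side of both libraries of the other line. The genes were picked for large differences between the lines, so this separation is no further support.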

How the data were processed

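RNA of the lines was sequenced in 4 libraries, 1 per line and treatment. The methods name an mRNA library kit, while the labels describe removal of ribosomal RNA. Which of these applies, and so the part of unspliced RNA in the counts, was not tested. The paper's methods and the submitters' notes name Trimmomatic 0.36, HISAT2 2.0 and StringTie 1.3.3b. The authors deposited raw counts and FPKM per gene (normalized to length and mapped fragments). The counting tool and its use of strand are not given in the sources used here. Rows without a gene name, between 0.453% and 0.635% of a library's counts, were left out. Coordinates are on GRCh38. The 58174 gene rows were matched to GENCODE release 29 by identifier (57836 found, 56007 with the same coordinates, among them 53 of the 56 RAB genes).

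For each pair of libraries, counts of genes with FPKM of at least 1 in either were compared with a two-sided conditional binomial test (Python 3.11.15, scipy 1.17.1), library sizes scaled by TMM and Benjamini-Hochberg adjustment over all genes tested. A q-value under 0.001 and a fold change over 2, with 0 set to 0.01, made a call. Such a test compares libraries, and its 95% Clopper-Pearson intervals cover counting error only. All 4 libraries were fitted with edgeR 4.0.16 (R 4.3.3, glmQLFit, filterByExpr), with DESeq2 1.42.0 as an alternative. Both procedures were tested on simulated data. The members and lists were chosen with earlier results of these data known. Named are RAB genes called in any comparison of 2 libraries, the 5 largest rises and 5 largest falls of each, the 10 most abundant, 11 fixed members (RAB3D, RAB5A, RAB5B, RAB5C, RAB7A, RAB11A, RAB11B, RAB27A, RAB27B, RAB31, RAB35) and, of each pathway list, called genes or the 2 largest changes. Not all are described. Sums over overlapping genes were chosen after the data were seen.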

Additional observations from a re-analysis of the deposited data

Results flagged for a closer look

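RAB43 was singled out because its libraries moved in opposite directions in the lines, with log2 fold changes after 10 Gy of -2.57 (SW1990) and 3.11 (PANC-1). The difference was not tested, since each group is 1 library. Summed with the readthrough gene ISY1-RAB43, the values were -0.39 and 0.66.

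RAB5B was singled out for the same reason, with -1.21 (SW1990) and 1.03 (PANC-1). This difference was not tested either. In FPKM the values were -1.25 and 0.59.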

How the results depend on the processing

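No paired analysis was possible because replicate numbers pair no libraries with 1 library per group, beyond the block by line that the radiation fit of 4 libraries already holds. At 1.5-fold, 10 RAB genes were called in SW1990 (20.8%) and 9 in PANC-1 (19.6%), and 1481 (9.41%) and 1774 (11.7%) genes in all. With FPKM and a pseudocount of 1, 2 RAB genes were called in SW1990 (4.17%) and 3 in PANC-1 cells (6.52%). Over all genes it was 335 (2.13%) and 346 (2.28%). With FPKM and 0 set to 0.01, 3 of 46 were called in PANC-1 cells (665 of 15159 genes in all). Among RAB genes overlapping no expressed gene, 3 of 24 were called in SW1990 (12.5%), 3 of 23 in PANC-1 cells (13%) and 11 of 26 at baseline (42.3%). Of 20 such genes tested in both lines, 7 were over 1 apart (35%). Over all genes tested, without that filter, the shares were 4.2%, 4.7%, 36% and 12%. The lines were over 1 apart in 6 of 42 RAB genes with a pseudocount of 1 (14.3%, and 7.2% of all genes) and in 18 of 56 without the FPKM filter (32.1%, and 23.7%), where genes at 0 in a line enter. DESeq2 called 39 genes after radiation. With read totals for scaling, the calls over all genes were 460 higher and 280 lower in PANC-1 cells (359 and 354 with TMM) and 3527 higher and 2551 lower in SW1990 at baseline (2849 and 3131). Fits without 1 library, and with no treatment term, leave a lone library in a line, which is assumed to vary like the others. Their calls are therefore not counted here. No value called at 2-fold changed sign under the alternatives run. Counts at or under the floor, such as RAB31 in SW1990 cells, allow no fold change, and genes with few reads such as RAB40B have wide intervals.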
